A study of Mus musculus with 2 samples.

Results

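Retinoic acid is made, bound, sensed and broken down by a small set of proteins, and the accessible chromatin at 10 of their genes was examined in mouse cells labelled GSC and Stag3 KO. The 10 genes were Rara, Rarb, Rarg, Rxra, Rxrb, Crabp1, Crabp2, Cyp26a1, Cyp26b1 and Aldh1a2, out of 21887 protein-coding genes of the RefSeq table on GRCm38.p6. They were taken by name from a list, and the rule for membership uses no measured value. The list was, however, chosen with earlier results of these data known. Each was followed through the regions that both libraries shared, meaning a peak of replicate 1 that overlapped a peak of replicate 2 by at least 1 bp, inside the gene model or within 50 kb of it. This gave 111 regions of 83732 in all.

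The series is an ATAC-seq experiment, in which a transposase cuts and tags open chromatin, on 1 group of 2 libraries. Both held viable reporter-positive cells sorted from a line of genotype Stag3 KO that carries Acrosin-EGFP and also beta-Actin-EGFP. Stag3 encodes a cohesin subunit best known from meiosis. Whether the libraries were separate cultures, and whether the line is 1 clone, is not in the labels, and the wild-type cells named in the design text were not analysed here. No value below is therefore an effect of the knockout, and no test was run.

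Replicate 1 held 107331 peaks and replicate 2 held 98986. Read depth is unknown. The tags stacked at each peak's summit were worked out from the authors' fold and p-value, with a median of 40 and 41. In the windows of the 10 genes, 111 of 140 replicate 1 peaks (79.3%, 95% Wilson interval 71.8 to 85.2) and 114 of 125 replicate 2 peaks (91.2%, interval 84.9 to 95.02) were found in the other library, against 78.0% and 84.9% of all peaks. Intervals cover counting error only. As a check of the label, all 9 germ cell markers on a list had a shared region within 1000 bp of a gene end. So did 4 of 5 Sertoli, 2 of 4 Leydig and fibroblast, and 0 of 3 endothelial and blood markers, against 65.8% of all protein-coding genes. Not all the germ cell regions were strong, and that of Nanos2 had folds of 4.08 and 2.79. An accessible site is not a measure of expression, so these counts do not show which cells were present.

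As background, retinol is oxidised to retinaldehyde and then by ALDH1A2 to retinoic acid, which the CRABP proteins bind in the cytoplasm. In the nucleus it binds RAR proteins, which pair with RXR proteins on DNA at repeats of a short half-site and switch target genes on, while the CYP26 enzymes break the molecule down. In the testis retinoic acid drives spermatogonia into differentiation and germ cells into meiosis.

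The listed promoters of Rarb and Cyp26a1 carried the classical response element of these receptors, and they are shown first because they are the sequences the receptors themselves are known to read. The element was searched as 2 half-sites in the same direction with 5 bases between them, on both strands. A half-site was AGGTCA as the classical form, AGTTCA as a first variant, GGGTCA as another, or GGTTCA as the last. The search covered the 300-base promoters that RefSeq gives on GRCm38.p6, from 250 bases before to 50 bases after a start. Of 32851 listed promoters 32 held a match (0.0974%), and among the 15 promoters of these genes it was found at Rarb and at Cyp26a1. Spacings of 1 base (0.222% of all promoters) and 2 bases (0.268%) had no match in the 15. Below, capitals mark the repeat. The Rarb sequence is the 250 bases upstream of the listed start on the minus strand, chr14:16575477-16575726, and the Cyp26a1 sequence is 29 bases on the plus strand, chr19:37697770-37697798, where the repeat reads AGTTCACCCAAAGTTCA on the opposite strand.
Rarb: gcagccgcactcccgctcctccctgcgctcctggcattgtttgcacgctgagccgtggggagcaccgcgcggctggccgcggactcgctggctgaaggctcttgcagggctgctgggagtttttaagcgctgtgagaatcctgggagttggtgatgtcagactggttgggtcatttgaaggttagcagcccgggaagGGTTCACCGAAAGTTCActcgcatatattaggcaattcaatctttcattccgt
Cyp26a1: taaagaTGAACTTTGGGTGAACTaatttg

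The repeats differed in how far they lay inside the called peaks. At Rarb the element stood at positions -53 to -37 from the start, and all 17 of its bases lay within the peaks of both libraries. At Cyp26a1 it stood at positions -32 to -16, at the upstream edge of the peak, with 11 bases inside the replicate 1 peak and 0 inside that of replicate 2. The replicate 1 and 2 peaks there began at 37697782 and 37697812. Edges can differ by more between libraries, since those over the Rarb start began at 16574900 and 16575167. Peak edges therefore do not settle whether the Cyp26a1 repeat was accessible. A match is a description of letters and does not show that a receptor was bound.

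Of the 9 genes with a start in the RefSeq promoter table, 8 had a shared region within 1000 bp of one, against 65.9% of 17492 protein-coding genes with a listed start. The exception was Cyp26b1, and Crabp2 has no entry in the table. All 10 genes had a shared region in the gene model, against 74.2% of genes. Fold enrichment is the authors' ratio of tags at the summit to the local background. In 4 of the 8 genes the strongest start region was above the median fold of all peaks in both libraries, which held for 80.1% of all genes with a start region. Rxra, Rxrb and Cyp26a1 were below it in both, and Crabp1 was above it in replicate 1 only. By tags all 8 were above the median of all peaks in both libraries, as in 89.0% of all genes with a start region. Over the 8 genes the median fold at the start was 10.7 in replicate 1 and 11.3 in replicate 2, against 15.4 and 16.4 over the 11521 genes with a start region, while the median tags were 149 and 155 against 133 and 146.

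Ordered by mean fold at the start, Aldh1a2 (16.4 in replicate 1 and 17.7 in replicate 2) stood beside Rarb (16.9 and 15.9), and their ranges overlapped. Rara (13.4 and 14.6) and Rarg (12.2 and 13.9) followed, below Rarb in both libraries and overlapping each other. Crabp1 (9.13 and 8.66) lay below these and above the last group of Rxrb (7.41 and 8.14), Cyp26a1 (7.80 and 7.52) and Rxra (7.50 and 7.60), whose ranges overlapped. By tags the order changed at Rxrb, whose 141 and 164 tags joined the upper group of Rarg (173 and 191), Rara (157 and 203), Aldh1a2 (186 and 148) and Rarb (169 and 162). Crabp1 (66 and 60), Cyp26a1 (70 and 61) and Rxra (56 and 58) stayed apart from it. The local background at Rxrb was 18.2 and 19.3 tags, against a median of 3.00 and 3.20 over all peaks.

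**Figure D1:**
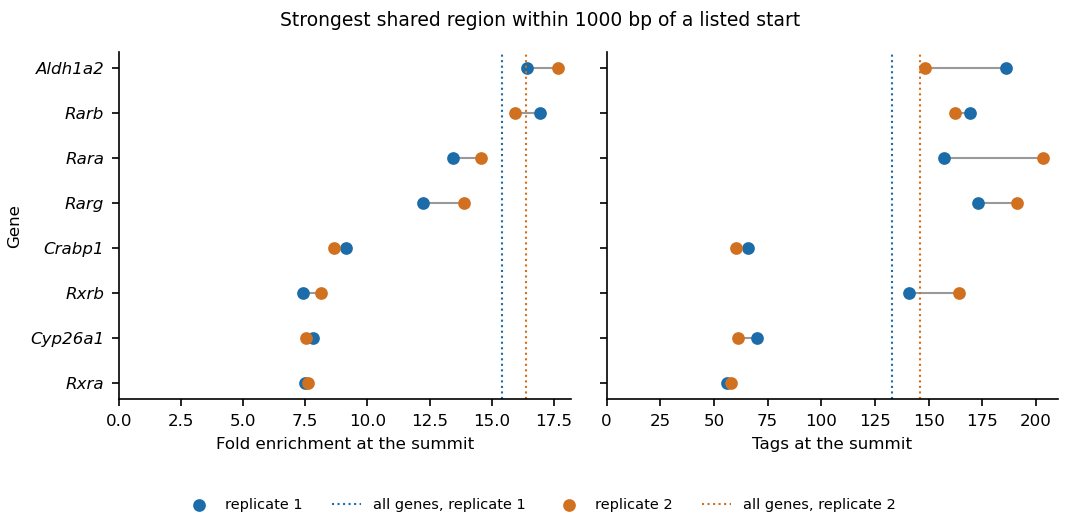
Fold enrichment (left) and tags at the summit (right) of the strongest shared region within 1000 bp of a listed start, for 8 genes; points are the 2 libraries and dotted lines the medians over all protein-coding genes with such a region. Rxrb lies among the lowest by fold, at 7.41 and 8.14, and in the upper group by tags, at 141 and 164.

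The 3 retinoic acid receptor genes shared a layout: their strongest start regions lay at starts inside the gene model and not at its outer 5′ end. RARB is itself a textbook target of retinoic acid through the element shown above. The Rarb model runs over 651 kb of chromosome 14, from 16430839 to 17082331 on the minus strand, and no shared region lay within 1000 bp of either end. Its one listed start, at 16575476, lies deep inside the model and was covered by a region 1080 bp wide, at 16574900 to 16575979. This region had 169 tags in replicate 1 and 162 in replicate 2, and its summits lay at -244 and -188 bp from the start. A search of gene ends alone leaves Rarb without an accessible start.

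The highest folds of all 111 regions were inside the Rarb model, on both sides of that start. One began 22431 bp upstream of it, at 16597907 to 16598342, with folds of 33.2 and 33.2 on 279 and 296 tags. The other lay 74.7 kb downstream, at 16500566 to 16501171, with folds of 34.1 and 31.4 on 299 and 265 tags. Both had higher folds than the start region in both libraries, and neither lay within 1000 bp of a listed start. A further region, 96.6 and 96.7 kb downstream, had folds of 20.2 and 19.6 on 88 and 71 tags.

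Accessible sites were unevenly spread along Rarb. The 144 kb downstream of the start held 8 shared regions, or 5.57 per 100 kb, whereas the 506 kb upstream of it held 3, or 0.593 per 100 kb. Between the strong upstream region and the next, 409676 bp upstream of the start, 387 kb held no shared region. The far pair of regions was weak, with folds of 6.27 and 8.96 on 19 and 27 tags, and 5.02 and 6.72 on 15 and 20 tags. In the upstream part replicate 1 had 4 further peaks that replicate 2 lacked, and replicate 2 had 0 of its own.

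**Figure D2:**
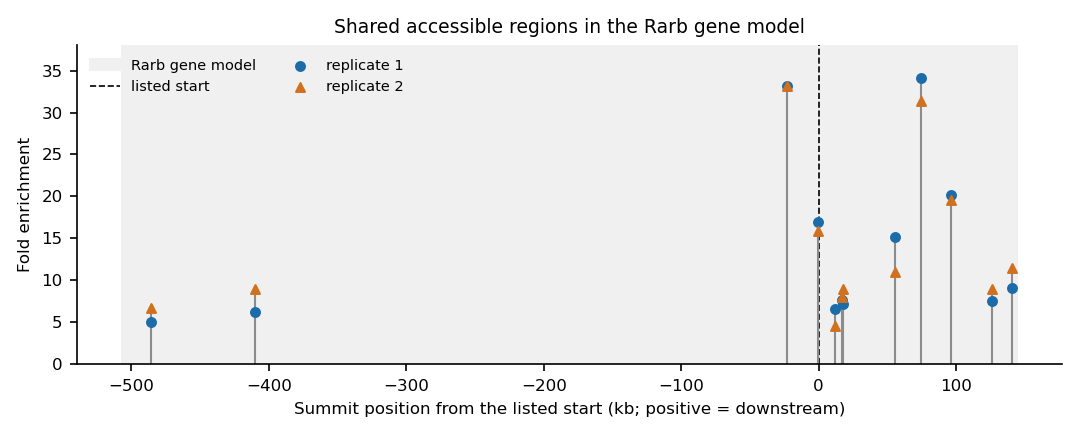
Fold enrichment of the 12 shared regions in the Rarb gene model (grey) by distance of the summit from the listed start in kb, with positive values downstream; circles are replicate 1 and triangles replicate 2. The 2 highest regions flank the start region, and a stretch of 387 kb upstream holds none.

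Rara encodes the receptor that is known to act in both Sertoli cells and germ cells of the testis. Its model lies on chromosome 11 at 98927800 to 98974942, on the plus strand, with 4 listed starts. A region 846 bp wide at 98937089 to 98937934 covered the starts at 98937696 and 98937718, with 157 and 203 tags. It also touched the model of the predicted gene Gm46294, so it cannot be assigned to Rara alone. The start at 98939711 had no shared region within 1000 bp, the nearest being 1777 bp away. The last start, at 98964872, had a region 698 bp upstream at 98963475 to 98964174, with folds of 11.6 and 14.3 on 118 and 180 tags. At the outer 5′ end of the model the folds were 7.40 and 3.89, on 68 and 50 tags, below those of both inner regions in each library.

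Rarg encodes the receptor known for its part in the response of undifferentiated progenitors to retinoic acid. Its model lies on chromosome 15 at 102234938 to 102257522, on the minus strand. The outer start, at 102257522, had a weak region with folds of 4.61 and 4.19 on 31 and 24 tags. The inner start, at 102246500, was covered by a region with folds of 7.26 and 6.94 on 102 and 94 tags. A stronger one began 328 bp upstream, at 102246828 to 102247314, with 12.2 and 13.9 on 173 and 191 tags. Both inner regions exceeded the outer one in each library.

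The most tags of any of the 111 regions began 5064 bp upstream of the outer Rarg start, at 102262586 to 102263022. The region had 458 and 479 tags, at percentiles 99.5 and 99.1 of its libraries, and folds of 22.9 and 30.0 over a local background of 19.0 and 15.0 tags. No listed start and no gene end lay within 1000 bp of it. Rarg had the most regions of the 10 genes, 16, of which 5 were in the model; 5 of the 16 lay at a listed start of a neighbour, such as Espl1 (20.9 and 25.8), the separase gene. One pair of Rarg regions, inside the neighbouring Itgb7, shared a single replicate 2 peak.

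At the strongest start region of each gene, Rxra and Rxrb had lower folds than the 3 receptor genes in both libraries, though not lower than the weaker start regions of Rarg. Rxra, on chromosome 2 at 27676445 to 27763319, had 3 modest regions around its start at 27677201 and none that covered it. Their folds were 7.50 and 7.60, 5.95 and 6.07, and 5.99 and 7.05, on 44 to 58 tags. The 300-base promoter here was 83.0% G and C, above 99.7% of all listed promoters, and whether base composition affected the signal was not tested. The other listed start, at 27709292, had a promoter of 54.3% G and C with 1 CpG, and the nearest region lay 9426 bp away.

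Inside Rxra the same region had the highest fold in both libraries, but its fold and tags differed between them. In replicate 1 it had fewer tags than the start regions. It lay 36.7 and 36.8 kb downstream of the second start, at 27745768 to 27746566, with a fold of 8.70 on 27 tags in replicate 1 and 14.6 on 78 tags in replicate 2. Past the end of the model, regions at 27764924 to 27765300 (12.5 and 15.0) and 27771933 to 27772234 (19.3 and 15.3) had higher folds than any at the start. Their tags, 39 and 65 and then 63 and 56, were not higher throughout than the 44 to 58 at the start.

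Rxrb, on chromosome 17 at 34031812 to 34038403, sits among closely packed genes, and 12 of its 14 regions lay outside its own model. The region at its first start, at 34031449 to 34031938, also lay within 1000 bp of the start of Slc39a7, a zinc transporter gene, so its 141 and 164 tags cannot be assigned to one of them. The second listed start, at 34032350, lay in a region of low fold, 2.60 and 3.32, that still held 48 and 66 tags over a local background of 17.8 and 19.2. Its promoter was 82.0% G and C. The highest Rxrb folds, 21.4 and 25.8, lay at the start of the class I histocompatibility gene H2-K1.

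**Figure D3:**
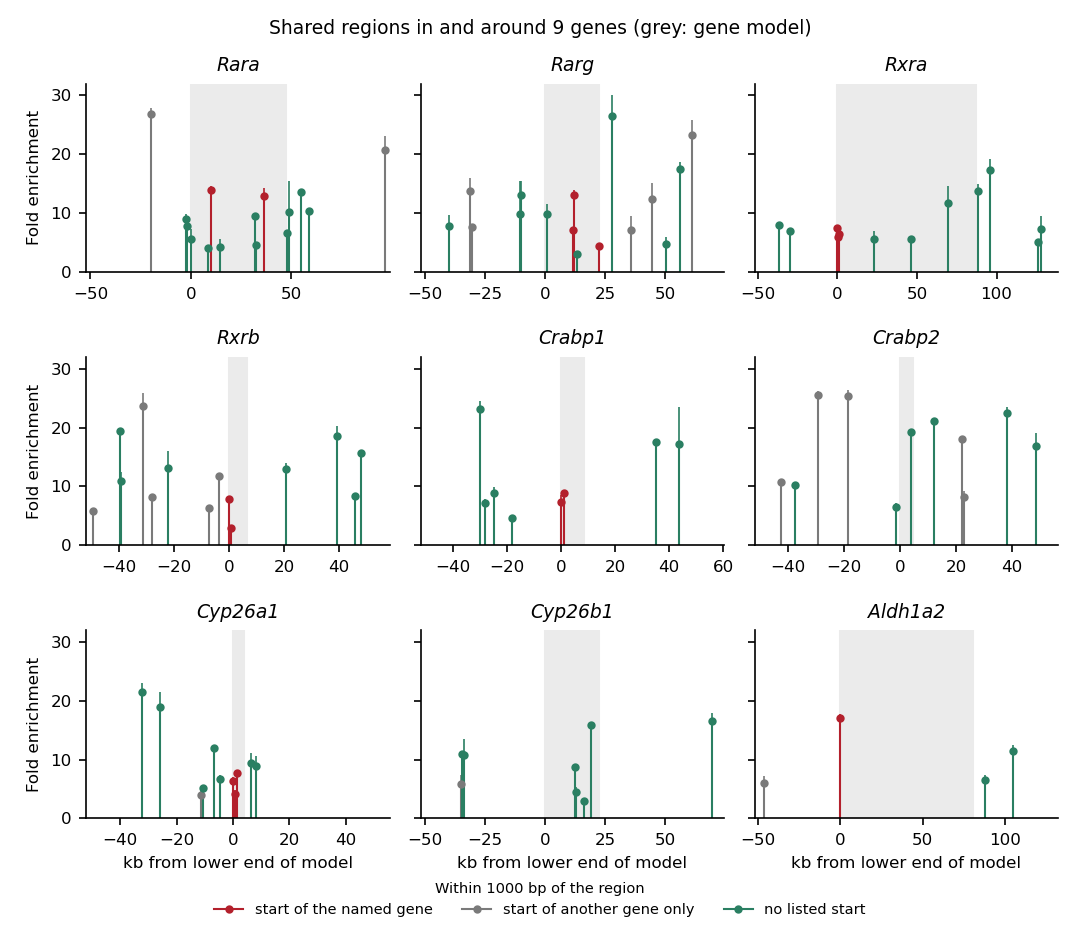
Shared regions in and around 9 genes, as kb from the lower-coordinate end of the gene model (grey) against fold enrichment; points are the mean of 2 libraries, thin bars span both values and stems run to 0. Red marks regions within 1000 bp of a listed start of the named gene, grey those at a start of another gene only, and green those at neither; Crabp2 has no listed start. Cyp26b1 has no red region, and that of Aldh1a2 is the only region in its model.

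The genes for the binding proteins differed. Crabp1, on chromosome 9 at 54764748 to 54773110, had a region 921 bp wide over its start, at 54764211 to 54765131, with folds of 8.47 and 6.34 on 61 and 44 tags. A second one lay just downstream, at 54765425 to 54766022, with 66 and 60 tags. The rest of the model held no shared region. Beyond it, at 54808091 to 54808403, the libraries disagreed, with a fold of 23.5 on 79 tags in replicate 1 and 10.9 on 33 tags in replicate 2.

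Crabp2, on chromosome 3 at 87948693 to 87953372, had a single region in its model, and a strong one. It lay at 87952344 to 87952915, 457 bp from the higher-coordinate end, with folds of 19.4 and 19.2 on 196 and 249 tags. Near the lower-coordinate end the closest shared region was 1376 bp outside the model and weaker, at 5.83 and 7.22 on 41 and 67 tags. The highest folds in its window belonged to neighbours, Mrpl24 (24.7 and 26.3), which encodes a mitochondrial ribosomal protein, and the paired starts of Isg20l2 and Rrnad1 (24.4 and 26.3).

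The breakdown enzymes contrasted with each other. Cyp26a1, on chromosome 19 at 37697738 to 37701536, had 3 shared regions at its start, each below the median fold of all peaks in both libraries. The first, at 37697782 to 37698097, had folds of 6.98 and 5.62 on 77 and 60 tags. Its replicate 1 peak began inside the repeat shown above. A start of the gene Gm32342 lay within 1000 bp of this region and the next, so neither can be assigned to Cyp26a1 alone. The second had 3.45 and 4.82 on 29 and 41 tags, and the one at 37698717 to 37699343 had 7.80 and 7.52 on 70 and 61 tags. Its paralogue Cyp26c1 lies upstream, and 4 shared regions touched that model, the strongest with folds of 11.3 and 12.5 on 140 and 155 tags. The highest folds of the window, 23.01 and 19.8, began 32044 bp upstream, inside Exoc6, an exocyst gene.

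Cyp26b1 encodes the enzyme known to keep retinoic acid low in the fetal testis. Its model lies on chromosome 6 at 84571414 to 84593908, on the minus strand. No peak of either library lay within 1000 bp of its listed start at 84593810. Accessible sequence began further in: a region at 84589992 to 84590646, with summits 3352 and 3360 bp downstream of the start, had folds of 15.99 and 15.8 on 164 and 178 tags. In each library these folds lay below those of the Rarb and Aldh1a2 start regions and above those of Rara and Rarg. A second group lay 9.69 to 10.3 kb downstream, led by folds of 9.10 and 8.35 on 84 and 85 tags. Between that group and the first region lay a weak one, with summits 6206 and 6197 bp downstream of the start. It had folds of 3.16 and 2.64 on 48 and 45 tags.

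Aldh1a2, which encodes the main retinoic acid synthesis enzyme of the embryo, was the reverse. Its model lies on chromosome 9 at 71215789 to 71296243, on the plus strand. The region at its start, at 71215167 to 71216288, was 1122 bp wide and held 186 and 148 tags, with summits 29 and 14 bp downstream of the start. A start of the lncRNA gene Gm3458 lay within 1000 bp of this region. Nothing else in the 80.5 kb model was shared, and the whole window held 4 regions, the fewest of the 10 genes and at percentile 24.3 of protein-coding genes.

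The promoters of Cyp26b1 and Aldh1a2 are given to show this contrast of an unmarked with an open start, from RefSeq on GRCm38.p6. Capitals mark 3 common promoter motifs on either strand: GGGCGG, found in 35.7% of all listed promoters, the box CCAAT, found in 37.4%, and the box TATAAA, found in 13.6%. The Cyp26b1 sequence covers 152 bases on the minus strand upstream of the gene model, chr6:84593909-84594060, and the Aldh1a2 sequence the 250 bases upstream of its start on the plus strand, chr9:71215539-71215788. All 250 Aldh1a2 bases lay in the peaks of both libraries and no Cyp26b1 base did. The 300-base promoters held 50 CpG dinucleotides at Aldh1a2 and 9 at Cyp26b1, against a median of 7 over all promoters.
Cyp26b1: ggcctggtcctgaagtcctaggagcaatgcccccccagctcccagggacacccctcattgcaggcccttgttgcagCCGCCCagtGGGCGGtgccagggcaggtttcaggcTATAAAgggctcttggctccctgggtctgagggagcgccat
Aldh1a2: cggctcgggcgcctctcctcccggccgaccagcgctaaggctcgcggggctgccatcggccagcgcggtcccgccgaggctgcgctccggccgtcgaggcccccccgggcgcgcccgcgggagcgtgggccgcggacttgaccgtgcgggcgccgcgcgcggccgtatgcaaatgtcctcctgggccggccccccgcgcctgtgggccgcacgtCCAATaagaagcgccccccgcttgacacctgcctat

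Of the 15 listed promoters, 12 held more CpG than the median. The 3 starts without a shared region within 1000 bp were those of Cyp26b1, the second of Rxra (1 CpG) and one of Rara (5 CpG). The Rara start with a region 698 bp away had 6 CpG, and the inner Rarg start, which was covered, had 10.

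Over the 111 regions, 17 lay within 1000 bp of a start of the gene itself, 20 at a start of another gene only and 74 at no listed start. The median fold was 9.13 and 9.49, against 10.9 and 10.6 over all shared regions, and the median tags were 62 and 66 against 52 and 51. The 17 own-start regions had a median fold of 7.50 and 7.52, against 11.1 and 12.1 over all 17692 regions at a listed start. Their median tags were also lower, 70 and 61 against 84 and 94. Their median local background was 9.04 and 7.72 tags against 7.40 and 7.80. Between libraries the log2 ratio of folds had an SD of 0.45 over the 111 regions and 0.49 over all regions. Replicate 2 had the higher fold in 61.3% of the 111, against 50.8% of all.

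**Figure D4:**
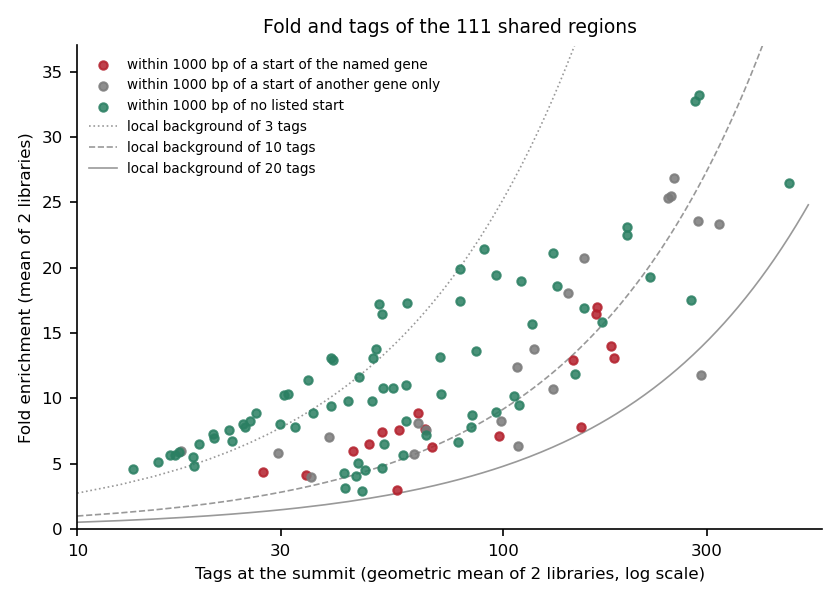
Fold enrichment (mean of 2 libraries) against tags at the summit (geometric mean, log axis) for the 111 shared regions, coloured by the listed starts within 1000 bp; grey lines give the fold that a local background of 3, 10 or 20 tags allows. The local background of regions at a start of the named gene (red) was 9.04 and 7.72 tags in the median, and 4.14 and 4.33 at those near no listed start (green).

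By number of regions the 10 genes ranged from 4 at Aldh1a2 to 16 at Rarg, with a median of 11.5, against 7 for all protein-coding genes. At least 1 was present at each of them, as at 89.6% of genes. Rara had 15, Rxrb 14, Rarb and Rxra 12, Crabp2 and Cyp26a1 11, and Crabp1 and Cyp26b1 8. Longer models have larger windows, and per 100 kb the order differed: Rxrb (13.1) and Rarg (13.1) led, and Rarb, with 1.60, was lowest. The median of the 10 genes was 8.79 per 100 kb, against 5.35 over all genes. Rarb and Aldh1a2 (2.22) were below the latter.

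Other genes of the pathway were counted in the same way, from a list of 31. Of the 21 with a listed start, 16 had a shared region within 1000 bp of one, against 65.9% of all genes with a listed start. In synthesis and transport 7 of 11 had one, led by Dhrs4 (16.9 and 18.5) and Rdh11 (16.3 and 15.3), both retinoid oxidoreductases. Stra6, which encodes the retinol uptake receptor, Bco1, which encodes the carotene cleavage enzyme, and the alcohol dehydrogenase genes Adh1 and Adh7 had none. The remaining RXR gene, Rxrg, had folds of 16.7 and 16.04 at its start, above those of Rxra and Rxrb in both libraries, on 74 and 76 tags. By tags Rxrb was above Rxrg, with 141 and 164, and Rxra below it, with 56 and 58. Cyp26c1 had folds of 4.68 and 3.35 at its start.

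All 3 coregulator genes with a listed start had a region there, with Ncoa1, a coactivator, at 12.1 and 12.01 and Ncor1, a corepressor, at 8.82 and 9.28. Among target genes 4 of 5 had one. Rec8 (28.2 and 26.8) and Stra8 (15.1 and 18.3) are known retinoic acid targets of meiotic entry. They held 372 and 429 tags and 245 and 279 tags, more in each library than the start region of any of the 8 members that had one. Bhmg1, another target, also had more tags than these members, 355 and 336, though its folds were 8.45 and 8.61. Kit, with 104 and 80 tags, did not. Hoxb1 had no shared region at its listed start.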

How the data were processed

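ATAC-seq peak lists of 2 Stag3 KO libraries were used, grouped and numbered by their titles. Per the submitters' processing notes, MACS2 2.1.1, Bowtie2 2.3.4.1, deepTools 3.5.0, bedtools 2.29.2, Picard 2.18.23 and Trim Galore were used, with the builds GRCm38.p3 and mm10; settings (Tn5 shift, duplicates) are not given in the sources used here and could move summits and thresholds. Each library has its own list. The authors deposited per peak a fold enrichment (a ratio to local background), −log10 p-values and q-values, a score (10 times −log10 q, not used) and another value, the summit's offset.

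The fold was read as (tags + 1)/(background + 1) and the p-value as a Poisson tail beyond the tags. Solving both gave 1 whole number of tags for 100% of peaks, within a relative tolerance of 1e-05 plus 0.0001. Each replicate 1 peak was paired with the replicate 2 peak of greatest overlap, at least 1 bp, to form a shared region. Gene models and 15 promoters of 9 members matched RefSeq tables on GRCm38.p6 by symbol; exons and introns were not used here. Starts are those of the promoter table, which is incomplete; the outer start of the model was an alternative. Percentiles are of fold or tags within a library. Both steps were tested on simulated data. Python 3.11.15, numpy 2.4.6, pandas 2.3.3 and scipy 1.17.1 were used.

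The members and lists were chosen with earlier results of these data known. Named were all 10 members and genes at named regions. Of the pathway genes, the 2 of highest mean percentile per role and those lacking a start region were named. Rxrg's and Cyp26c1's role has only these with a listed start. Nanos2, Bhmg1 and Kit were named outside this rule, for their folds or tags. Alternatives were the overlap, a −log10 q of at least 5, the 50000 strongest peaks, single libraries, and other windows and distances.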

Additional observations from a re-analysis of the deposited data

How the results depend on the processing

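Of 69 alternative values, 62 stayed within 1.5 times of the count or within the spread of the libraries. This tally is not a measure of robustness. Where the strongest region stayed the same, its value in a single library is that library's own fold and lies within the spread by definition. Genes that lost their region under an alternative gave no value and are not among the 69. The count of 111 regions depended on the distance, being 61 within 10 kb, 187 within 100 kb and 43 in the gene models alone. With the 50000 peaks of highest fold it was 48, the genes with a start region fell from 8 to 4 (Rara, Rarb, Rarg and Aldh1a2), and those with a gene-end region from 8 to 2, the last an alternative added after seeing the data; Rxra, Rxrb, Crabp1 and Cyp26a1 then had no region in the model and give no value. Leaving out 1 library gave 125 to 140 regions. The strongest Rarb region, upstream of the start, had a mean fold of 33.2; replicate 2 alone gave the same region, at 33.2, and replicate 1 alone the one 74.7 kb downstream, at 34.1. No paired analysis was possible because the series has 1 group. Read depth is unknown, and the peaks around the 10 genes that were found in 1 library only had a median of 23 and 20 tags. Fold depends on the local background, which differed between these genes, so folds do not rank openness across them.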

Other observations

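Peaks of a single library around the 10 genes were weak. Replicate 1 had 29, with a median of 23 tags and at most 86, and replicate 2 had 11, with a median of 20 and at most 43; the highest fold among them was 8.43, at a replicate 2 peak near Crabp1. One replicate 1 peak of 35 tags and fold 2.91 lay just outside the lower-coordinate end of Crabp2, within 1000 bp of which no shared region was found.

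In 4 of the 111 regions the folds differed by more than 2 times between libraries, against 4592 of all 83732 shared regions. Beside the Crabp1 region described above, these were a region 1317 bp past the end of Rara (15.4 on 62 tags and 5.12 on 15), one of the Itgb7 regions of Rarg (4.07 on 23 tags and 15.5 on 81) and one at the lncRNA gene Gm9918 (4.65 and 9.49, on 38 and 40 tags). The Itgb7 values come from different summits, 22228 and 21803 bp downstream of the inner Rarg start. The same replicate 2 peak was also paired with the next region, whose replicate 1 summit lay at 21817 bp, with a fold of 10.8 on 62 tags. The Itgb7 difference is therefore not a disagreement at 1 site.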
